A study of Mus musculus with 6 samples.

Results

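C-type lectin receptors are membrane proteins whose carbohydrate-recognition fold binds sugars, lipids or proteins of microbes and damaged cells. Mincle, MCL and Dectin-2 signal through the Fc receptor gamma chain and Dectin-1 through a tyrosine motif of its own, and both routes lead to the kinase SYK and the adaptor CARD9. Others carry inhibitory motifs that recruit phosphatases, and macrophages, monocytes and dendritic cells are the cells best known for making them. The genes examined here were taken by symbol from the table of estimated counts and were Clec4e, Clec4d, Clec4n, Clec4a2, Clec12a, Clec7a, Clec5a, Clec10a, Mgl2 and Cd209f. They were 10 of 17469 genes in the table, and all 10 passed the filter on low counts. They had been picked with the genotype difference of these same libraries in view, so their differences are given as a description. No p-value is printed for them, and calls made on them are counted without being read as evidence.

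RNA-seq was done on Ai9+ (tdTomato+) cells sorted by flow cytometry from BMSC cultures of 6-month-old mice. BMSCs are adherent cells of the femur and tibia marrow, here cultured and passaged before the sort. The control group was Ocn-Cre;Ai9 and the other was TgAPPswe;Ocn-Cre;Ai9, called TgAPPswe below, with 3 libraries each. Every animal carried Cre recombinase under the osteocalcin promoter and the Ai9 reporter, and the TgAPPswe animals also carried human APP with the Swedish mutation behind a CAG promoter, from which it is expressed once Cre has removed a stop cassette. No treatment was given, and the number of mice behind a library was not given in the sources used here, so p-values measure the spread between libraries only. Libraries held between 19340810 and 22037840 estimated counts. App had an FPKM (fragments per kilobase of transcript, scaled to sequencing depth) of 279 ± 3.5 (SD, n = 3) in control and 330 ± 4.18 in TgAPPswe (log2 fold change 0.45, adjusted p = 7.87e-05 from edgeR), and its entry does not separate mouse from human transcripts. The study treats the sorted cells as osteoblast progenitors, and markers of other cell types were measured beside that name. The median FPKM of 15 myeloid marker genes lay between 406.5 and 452.7 in control and between 460 and 477 in TgAPPswe, against 3.04 to 3.1 and 3.44 to 4.04 for 15 stromal and osteoblast-lineage genes. Among the latter, Col1a1, Col1a2 and Sparc had a mean FPKM of 45.5, 53 and 83.5 in control, while Bglap, an osteocalcin gene, was at most 1.25 in any library. Summed FPKM of the stromal and osteoblast-lineage genes was 1135 to 1220 in control and 652 to 913 in TgAPPswe, of which Spp1 was 870 to 1000.3 and 481 to 672. None of the 13 tested markers of that list was called, although 6 passed the adjusted p with a smaller change, Sp7 (-0.78), Pdgfrb (-0.55), Spp1 (-0.54) and Sparc (-0.39) being lower and Col3a1 (0.74) and Alpl (0.57) higher. Meanwhile 4 myeloid markers were called higher (Itgam, Adgre1, Fcgr1 and Aif1) and 3 lower (Csf1r, Cd68 and Cx3cr1). In bulk RNA, fewer cells of a type and less RNA per cell cannot be told apart.

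Cd209f is a mouse homologue of DC-SIGN, a lectin of dendritic cells and macrophages, and lies on chromosome 8 (chr8:4102784-4105838, GRCm38) beside a near copy, Cd209g (chr8:4134246-4137707). The deposited counts of the copies have to be read together, because their coding sequences share long identical stretches. The coding sequences of the GENCODE transcripts matched at 522 of 585 aligned bases, or 89.2%. Of the 776 windows of 50 bases in Cd209f, 233 occurred unchanged in Cd209g, and the longest identical run had 178 bases. It is shown because a read from it matches both genes. In Cd209f it spans exons 3 to 5 (chr8:4104485-4105292, minus strand), and in Cd209g exons 3 to 5 (chr8:4135194-4135996, plus strand).
Cd209f and Cd209g: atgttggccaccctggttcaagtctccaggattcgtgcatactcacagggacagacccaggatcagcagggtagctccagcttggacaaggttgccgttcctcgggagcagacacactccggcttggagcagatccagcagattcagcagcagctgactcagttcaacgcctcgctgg

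The copies can still be told apart elsewhere. The 90-base stretch within a single exon that held the most differences lies in exon 8 of each gene (chr8:4103150-4103239, minus strand, in Cd209f and chr8:4137271-4137360, plus strand, in Cd209g). Capitals mark the 29 bases at which the copies differ.
Cd209f: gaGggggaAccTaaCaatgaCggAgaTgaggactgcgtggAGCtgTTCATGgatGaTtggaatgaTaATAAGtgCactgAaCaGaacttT
Cd209g: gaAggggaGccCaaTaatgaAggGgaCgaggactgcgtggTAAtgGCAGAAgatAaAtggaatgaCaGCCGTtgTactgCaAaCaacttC

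The stretches before the transcription starts were also alike. In the 250 bases before the RefSeq start used (GRCm38.p6), 209 of 231 aligned bases matched, and an unbroken run of 154 bases was shared. The windows are printed because both genes were higher in TgAPPswe libraries, at chr8:4105765-4106014 (minus strand) for Cd209f and chr8:4134486-4134735 (plus strand) for Cd209g. Capitals mark TGAGTCA, a match to the AP-1 motif TGANTCA. RefSeq also holds models of both genes that begin further upstream.
Cd209f: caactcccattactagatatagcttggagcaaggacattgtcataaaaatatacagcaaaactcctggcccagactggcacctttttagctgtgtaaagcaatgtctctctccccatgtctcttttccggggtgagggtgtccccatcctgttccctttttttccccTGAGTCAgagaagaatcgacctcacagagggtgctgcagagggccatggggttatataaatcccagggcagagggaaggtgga
Cd209g: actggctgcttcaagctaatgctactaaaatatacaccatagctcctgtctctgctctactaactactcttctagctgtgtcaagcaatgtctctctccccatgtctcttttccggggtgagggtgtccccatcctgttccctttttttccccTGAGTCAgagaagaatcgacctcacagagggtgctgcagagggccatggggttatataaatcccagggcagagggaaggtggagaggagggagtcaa

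The motifs searched on both strands of these 250-base windows were TGANTCA (AP-1), GAGGAA (the PU.1 core), TTGCNNAA (C/EBP) and the NF-kB consensus. RefSeq windows were matched for 8 of the 10 receptor genes, all but Clec4n and Clec10a. A gene was counted if any of its windows held the motif, whereas the shares over all genes are of windows. GAGGAA was present in 6 of the 8 genes, and in 23.3% of the 32851 windows of all genes. TGANTCA was present in 2, Cd209f and Clec12a (6.75% of all windows), and TTGCNNAA in 2, Clec4e and Clec12a (9.56%). The NF-kB consensus was in none of the 8, and in 5% of all windows. Such matches describe letters and show no binding. The window of Clec4e (chr6:123289872-123290121, minus strand) is shown because this gene had the next largest positive difference after Cd209f, with its 3 matches in capitals.
Clec4e: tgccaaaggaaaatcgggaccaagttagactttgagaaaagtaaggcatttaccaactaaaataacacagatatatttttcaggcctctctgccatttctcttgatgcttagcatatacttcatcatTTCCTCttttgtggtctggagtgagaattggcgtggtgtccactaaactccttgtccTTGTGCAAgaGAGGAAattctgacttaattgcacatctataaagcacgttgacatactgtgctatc

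Cd209f was nearly silent in control cells and abundant in TgAPPswe cells. Its FPKM was 1.37, 0.49 and 1.21 in control and 244, 125 and 180 in TgAPPswe, a 179-fold difference between the means. Every TgAPPswe library lay far above every control library, and the TgAPPswe libraries themselves ran over a wide range. The fitted log2 fold change from edgeR was 7.73 with a standard error of 0.392, and it ran from 6.48 to 8.02 over the alternatives. The estimated counts of Cd209f were fractional in all 6 libraries, 32.65, 10.53 and 28.42 in control and 6684.27, 3268.45 and 4786.58 in TgAPPswe. Cd209g held the complement in each library, so that the sums were 64, 20 and 54 in control and 16402, 6312 and 10856 in TgAPPswe. These sums were whole within 0.011 counts in all 6 libraries, and no other gene of the table completed the fractions of Cd209f in that way. The fractional counts of the copies are read here as shares of their sum. Cd209f took 51% to 52.7% of the pair in control and 40.8% to 51.8% in TgAPPswe. With both copies summed into 1 feature, the log2 fold change was 7.98 (standard error 0.488). The difference between the genotypes was thus as large in the pair as in Cd209f alone. For Cd209g by itself the fit gave 8.21 on the log2 scale (standard error 0.582), which is not separate from the value of Cd209f and is given without a p-value. Its control counts were 31.35, 9.47 and 25.58, against 3043.55 to 9717.73 in TgAPPswe.

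The other Cd209 copies were at overlapping or very low levels. Cd209c, which shared no window of 50 bases with either, had an FPKM of 14, 12 and 13.5 in control and 9.87, 10.7 and 12 in TgAPPswe. The ranges of the genotypes touched, and the fit gave -0.06 on the log2 scale (standard error 0.0953) at an adjusted p of 0.586. Cd209c also had fractional counts in all 6 libraries, and no gene of the table completed them. Cd209a held 0, 2 and 2 counts in control and 0 in each TgAPPswe library, under the 3 counts taken as detectable, which covers counting error only. Cd209b, Cd209d and Cd209e had no entry under these symbols among the estimated counts, so they were not analysed here. With all 4 Cd209 genes summed, the log2 fold change was 4.81, with Cd209c holding 353 to 407 counts of each control sum.

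**Figure D1:**
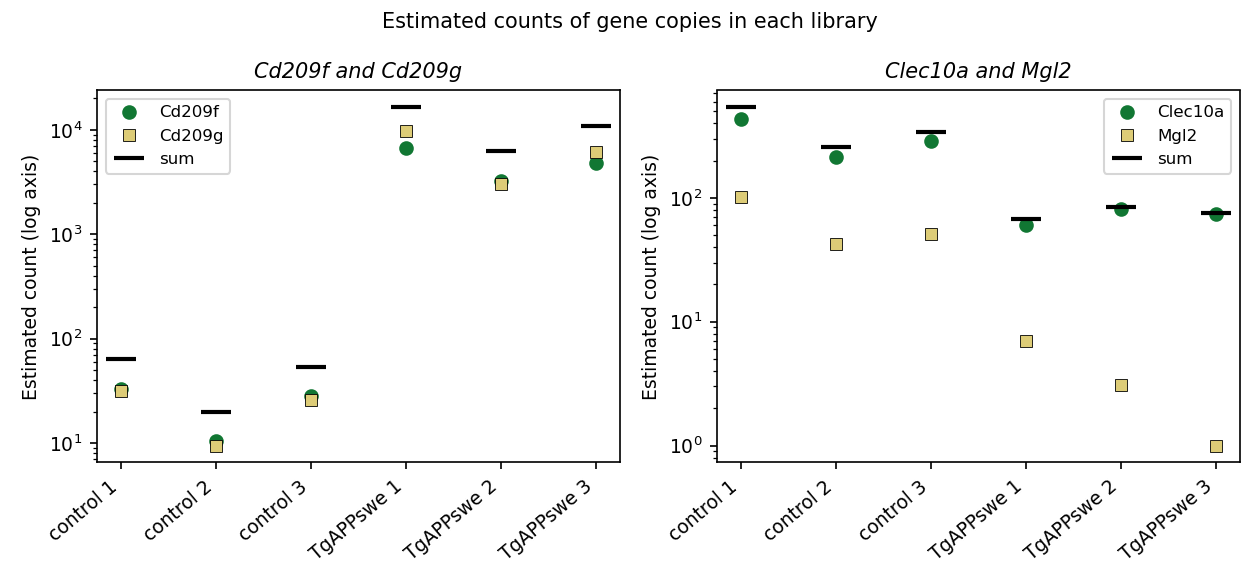
Estimated counts on a log axis (y) in each of the 6 libraries (x) for Cd209f with Cd209g (left) and Clec10a with Mgl2 (right), with the black dash as the sum of the pair. The sum of Cd209f and Cd209g went from 20 to 64 in control to 6312 to 16402 in TgAPPswe, and that of Clec10a and Mgl2 from 258 to 539 down to 68 to 85.

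The Fc receptor gamma chain coupled receptors went apart. Clec4e (Mincle), a sensor of mycobacterial glycolipid and of dying cells, had an FPKM of 8.11, 8.32 and 8.32 in control and 99.3, 39.5 and 69.5 in TgAPPswe. All TgAPPswe libraries were above all control libraries, which had a coefficient of variation (CV) of 1.47%, against 43.1% among the TgAPPswe libraries. The log2 fold change was 3.30 (standard error 0.311). Clec4n (Dectin-2), a receptor for fungal mannans, had an FPKM of 145, 138 and 138 in control and 25.5, 19.1 and 23.2 in TgAPPswe. The genotypes were far apart in the opposite direction to Clec4e, with a mean in control 6.21 times that in TgAPPswe and a log2 fold change of -2.41 (standard error 0.113). Clec4d (MCL), which pairs with Mincle, was abundant in both genotypes, with an FPKM of 287, 328 and 302 in control and 242, 173 and 203 in TgAPPswe. Each TgAPPswe library was below each control library, but the log2 fold change of -0.35 (standard error 0.124) was short of the threshold of 1. Summed over these 3 genes, FPKM was 454 ± 17.7 (SD, n = 3) in control and 298 ± 67.7 in TgAPPswe. Mincle was 8.25 of that sum in control and 69.4 in TgAPPswe, and Dectin-2 went from 140 to 22.6.

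Receptors with inhibitory motifs were higher or little different. Clec4a2 (DCIR) had an FPKM of 133, 117 and 121 in control and 334, 283 and 283 in TgAPPswe. The genotypes did not overlap, and the log2 fold change was 1.46 (standard error 0.0949). Its counts were fractional in all 6 libraries. Added to those of the neighbouring copies Clec4a4 and Clec4b1 they became whole within 0.011 in 4 of 6 libraries, and no gene of the table completed them alone. Clec4a4 held only 10 to 55.2 counts per library against 2830 to 8923 for Clec4a2, so even all reads of Clec4a4 would change Clec4a2 little. Clec12a (MICL), which binds uric acid crystals, had the largest FPKM of the 10 genes in both genotypes, 341, 332 and 323 in control and 438, 355 and 389 in TgAPPswe. All TgAPPswe libraries were above all control libraries, by a log2 fold change of 0.48 (standard error 0.0857), under the threshold.

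Dectin-1 and MDL-1 signal by other routes. Clec7a (Dectin-1), the receptor for fungal beta-glucan, had an FPKM of 45, 66.7 and 56.9 in control and 7.66, 6.99 and 7.09 in TgAPPswe. Control libraries differed among themselves with a CV of 19.3%, and all stood well above the TgAPPswe libraries, which had a CV of 4.99%. The log2 fold change was -2.74 (standard error 0.142). Clec5a (MDL-1), which signals through the adaptors DAP12 and DAP10, had an FPKM of 10.7, 11.7 and 10.6 in control and 10.5, 6.03 and 8.57 in TgAPPswe. In FPKM the genotypes nearly met, since TgAPPswe replicate 1 was just under the lowest control library. Unscaled, the estimated counts of Clec5a overlapped, at 775, 865 and 760 in control and 864, 493 and 690 in TgAPPswe. Its log2 fold change of -0.17 was smaller than its standard error of 0.18, and it was 0.03 without TgAPPswe replicate 2.

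Both galactose-type lectins were low in TgAPPswe cells. Clec10a (MGL1), which binds terminal galactose, had an FPKM of 15.6, 7.62 and 10.4 in control and 1.93, 2.62 and 2.39 in TgAPPswe. The control libraries were spread widely, with a CV of 36.2%, and still did not reach down to the TgAPPswe libraries. The log2 fold change was -2.06 (standard error 0.262). Mgl2, its copy that binds N-acetylgalactosamine, had estimated counts of 101.72, 42.16 and 50.87 in control and 7.01, 3.07 and 1 in TgAPPswe. It passed the filter on low counts only through the control libraries, so the value in TgAPPswe was near the detectable minimum, and its log2 fold change of -4.05 (standard error 0.572) moved between -4.89 and -1.47 over the alternatives. Clec10a and Mgl2 lie on chromosome 11 (chr11:70166623-70170836 and chr11:70130125-70137542), and their coding sequences matched at 825 of 913 aligned bases (90.4%). Their fractional counts also completed each other, to 539, 258 and 338 in control and 68, 85 and 75 in TgAPPswe, and no other gene of the table completed those of Clec10a. Summed, the pair had a log2 fold change of -2.26 (standard error 0.27). The 183-base run that both genes share is printed for the same reason as for the Cd209 copies. It spans exons 6 to 8 of Clec10a (chr11:70169822-70170189, plus strand) and exons 7 to 9 of Mgl2 (chr11:70136337-70136699, plus strand).
Clec10a and Mgl2: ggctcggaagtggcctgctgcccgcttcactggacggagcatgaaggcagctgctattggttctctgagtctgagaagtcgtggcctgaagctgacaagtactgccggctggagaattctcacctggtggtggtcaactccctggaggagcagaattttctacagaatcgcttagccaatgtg

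**Figure D2:**
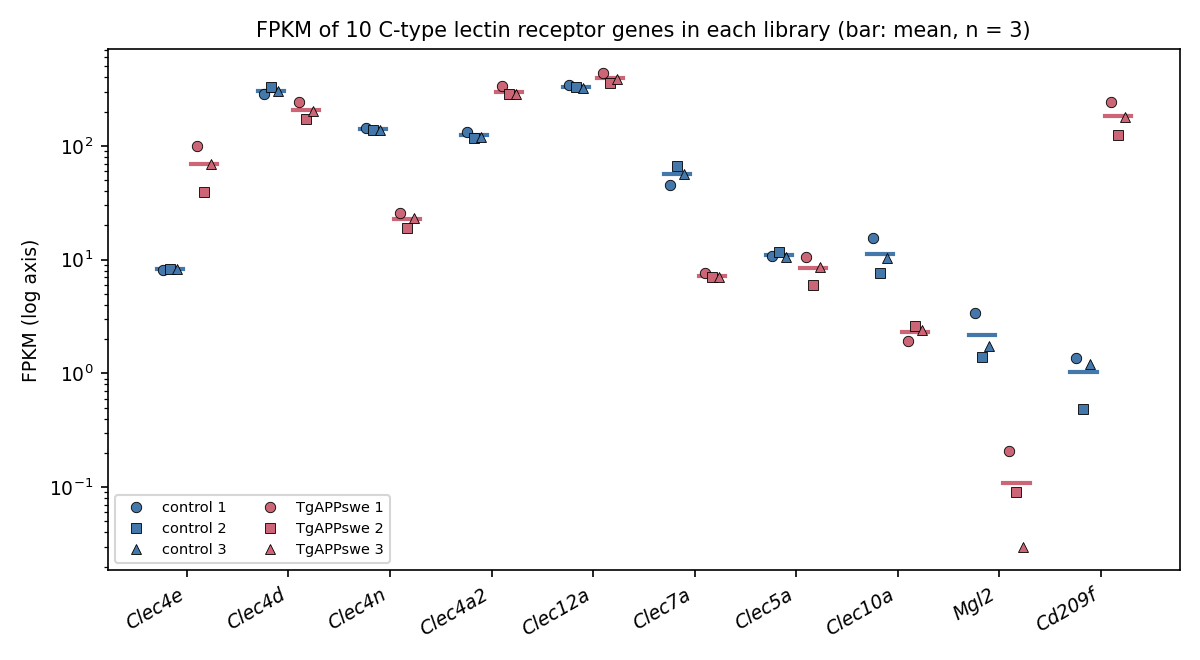
FPKM on a log axis (y) of the 10 receptor genes (x) in 3 control libraries (blue) and 3 TgAPPswe libraries (red), with symbols for the replicate and bars for the mean. In FPKM, the genotypes did not overlap for any of the 10 genes, and the gap was widest for Cd209f, Mgl2, Clec4e, Clec7a and Clec4n. For Clec5a the unscaled estimated counts did overlap.

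Calls needed both an adjusted p of 0.05 or less from edgeR and a change of 1 or more on the log2 scale, up or down. Of the 10 receptor genes, 3 were called higher in TgAPPswe (Cd209f, Clec4e and Clec4a2) where 8.90% of all tested genes were, and 4 lower (Clec4n, Clec7a, Clec10a and Mgl2) where 9.20% were, or 18.1% in both directions. The genotypes' FPKM ranges were apart for all 10, as they were for 72.3% of the 12701 genes tested. Of the 10, 4 were higher in TgAPPswe, beside 24.0% of tested genes, and 6 lower, beside 48.3%. Nothing is read from these counts, since the genes were picked on the same contrast. The median log2 fold change over the 10 was -0.26, beside -0.02 over all tested genes.

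The order of levels within the group changed with genotype. In control cells the order by mean FPKM was Clec12a, Clec4d, Clec4n, Clec4a2, Clec7a, Clec10a, Clec5a, Clec4e, Mgl2 and Cd209f. Clec12a overlapped with Clec4d, and Clec10a with Clec5a, while other neighbours were apart. In TgAPPswe cells it was Clec12a, Clec4a2, Clec4d, Cd209f, Clec4e, Clec4n, Clec5a, Clec7a, Clec10a and Mgl2. There Clec4d overlapped with Cd209f, and Clec5a with Clec7a. Cd209f went from 0.103% to 15.3% of the summed FPKM of the 10 genes, Clec4a2 from 12.5% to 25.2%, Clec4n from 14.2% to 1.89% and Clec7a from 5.67% to 0.607%. The sum itself was 989, 1011 and 973 in control and 1403, 1011 and 1166 in TgAPPswe, so the genotypes met at TgAPPswe replicate 2.

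Libraries of the same genotype also differed, which is described here in the same libraries on which the genes were chosen. In TgAPPswe, 8 of the 10 genes had their highest FPKM in replicate 1 and their lowest in replicate 2, an order found in 20.4% of all tested genes. For Clec4a2 this order rested on 282.94 in replicate 2 against 283.39 in replicate 3. Clec4e varied most among the better counted genes, with replicate 1 at 0.52 and replicate 2 at -0.81 on the log2 scale from the genotype's mean, followed by Cd209f (0.42 and -0.55) and Clec5a (0.33 and -0.47). Clec10a went the other way, with replicate 1 lowest, and Mgl2, at 1 to 7.01 counts, had replicate 3 lowest. Over all tested genes the median CV was 7.36% in TgAPPswe and 7.44% in control. The summed FPKM of 6 osteoclast markers followed the same order, with 220, 97.1 and 165 in TgAPPswe replicates 1 to 3 against 12.9 to 15 in control. Nearly all of the TgAPPswe sum was Mmp9 (169, 69.3 and 124) and Acp5 (46.1, 22.3 and 35.7), the only members of that list called higher. Ctsk was lower in TgAPPswe without being called (log2 fold change -0.36, adjusted p = 0.0372), Dcstamp was at most 0.44 in any library, Oscar was at most 0.13, and Calcr held 1 count in TgAPPswe replicate 1 and 0 elsewhere. The sum of the 15 myeloid markers had that order too, with 16348, 12330 and 14028 against 17003 to 17222 in control. Of this TgAPPswe sum, Lyz2 was 8724, 5379 and 6830, and Adgre1 was 2100, 1462 and 1766. Not all markers of the list had that order, as Itgam, Ptprc, Fcgr1 and Laptm5 were lowest in replicate 1. The part of these osteoclast and myeloid markers in the receptor values was not tested. In control, 5 of the 10 genes (Cd209f, Clec10a, Mgl2, Clec4a2 and Clec4n) were highest in replicate 1 and lowest in replicate 2, an order found in 20.9% of tested genes. For Clec4n the order rested on 138.02 against 138.04, and the fractional counts of Clec10a and Mgl2 completed each other. Clec7a and Clec4d had the opposite order, which 20.9% of tested genes had as well. The summed FPKM of 8 dendritic cell markers was 18.8, 43 and 32.1 in control replicates 1 to 3, of which Itgax was 15.8, 40.9 and 29.4, and 18.5 to 30.2 in TgAPPswe. Itgax was not called (log2 fold change -0.97, adjusted p = 0.0507), while Batf3 (2.58, adjusted p = 1.06e-05) and Xcr1 (1.88, adjusted p = 0.000133) were called higher, at FPKM of up to 11.3 and 0.5. Clec9a, too low to test, held 7 to 11 counts in control and 2 to 3 in TgAPPswe. Neutrophil markers summed to 12.3 to 51.5 in control and 18.1 to 49.4 in TgAPPswe, endothelial markers to 3.86 to 5.92 and 5.12 to 6.07, and lymphoid markers to at most 0.22 in any library. In these lists Camp, of neutrophils (3.02), and Pecam1, of endothelium (1.03, adjusted p = 0.000116 from edgeR), were called higher. Camp held 1 to 9 counts in control and passed the filter on low counts only through the TgAPPswe libraries.

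**Figure D3:**
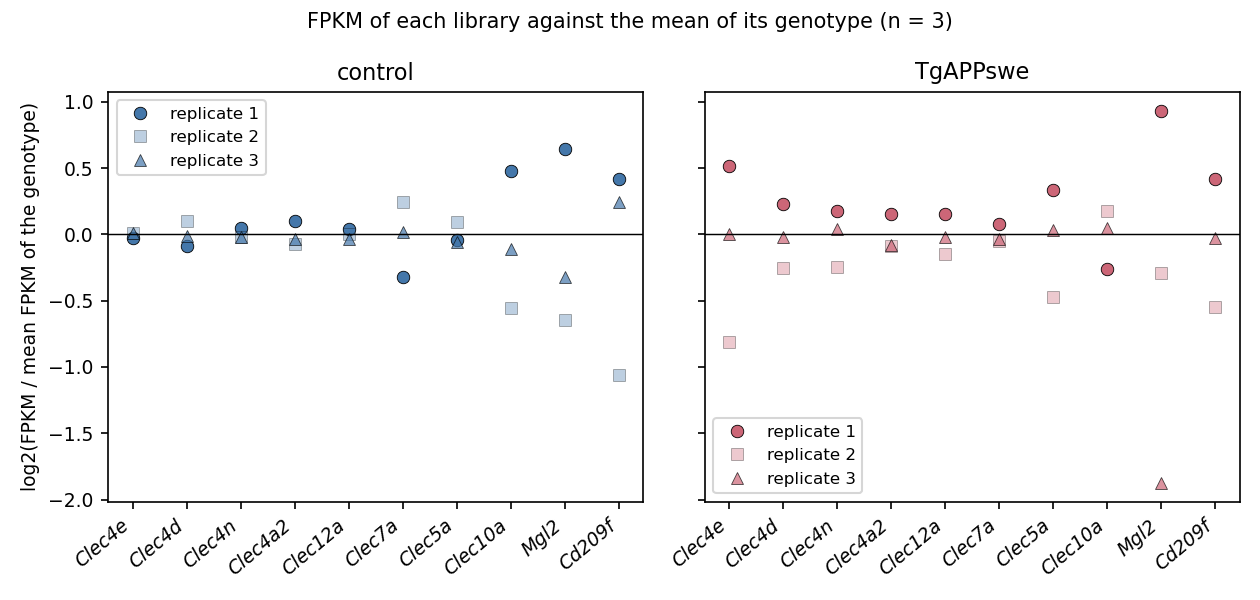
FPKM of each library relative to the mean of its genotype on a log2 scale (y) for the 10 receptor genes (x), in control (left) and TgAPPswe (right), with symbols for the 3 replicates. In TgAPPswe, replicate 1 was above the mean for 9 genes, all except Clec10a.

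Genes of the wider family were fitted on the same contrast, and this list too was drawn up with results of these data known. A list of 55 other genes with a C-type lectin or lectin-like domain had 47 entries in the table, of which 22 had enough counts. Called higher were 6 (Cd209g, Cd69, Clec4a4, Clec4a1 and Clec4a3 among them), called lower were 2 (Cd207 and Mrc1), and 14 were not called, beside 8.90% higher and 9.20% lower over all tested genes. The median log2 fold change over all 22 was 0.01. The count of 6 includes Cd209g, whose reads were shared with Cd209f. Cd69, a surface marker of early activation, had an FPKM of 0.79, 0.57 and 0.87 in control and 29.8, 14.4 and 19.9 in TgAPPswe (5.03 on the log2 scale with a standard error of 0.332, adjusted p = 3.74e-06 from edgeR). It stood apart clearly and had the same order of TgAPPswe libraries as Clec4e. Among lowered genes, Mrc1, the macrophage mannose receptor, went from 223, 187 and 213 to 27.5, 41.2 and 34.5 (log2 fold change -2.38, adjusted p = 1.53e-06). Cd207 (langerin), a lectin of Langerhans cells, went from 17.2, 34.1 and 27.1 to 3.85, 1.94 and 2.46 (log2 fold change -3.02, adjusted p = 4.24e-05). For Mrc1 and Cd207 the genotypes did not overlap. Receptors that passed the adjusted p with a smaller change included Thbd (0.89), Cd72 (0.55) and Cd93 (-0.65).

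Most Clec4 genes lie in a cluster of 368 kb on chromosome 6, from Clec4a1 (chr6:122921848-122934619) to Clec4e (chr6:123281789-123289871). At its Clec4a1 end, Clec4a1 rose by 1.91 ± 0.116 (log2 and its standard error, adjusted p = 2.4e-06), from an FPKM of 253, 190 and 215 to 770, 663 and 694. Clec4a3 rose by 1.34 (adjusted p = 3.9e-07) and Clec4a4, at 10 to 12 control counts, by 2.02 (adjusted p = 0.000296). Clec4a4 was not called with limma on log2(FPKM + 1), at 0.91. Its counts were fractional in all 6 libraries and its coding sequence shares a run of 163 bases with the far more abundant Clec4a2, so its value is uncertain. Clec4b1, between Clec4a4 and Clec4a2, differed by 0.05 on the log2 scale (adjusted p = 0.755) and changed sign with the scaling, being -0.17 with library size only. Towards the other end, Clec4n lay lower in TgAPPswe, and Clec4e, at the very end, lay higher, with Clec4d between them. Neighbours in the cluster thus differed in direction, and Clec4b2, with at most 2 counts per library, was too low to test. Clec4f, with a sole count in TgAPPswe replicate 1, was too low as well.

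**Figure D4:**
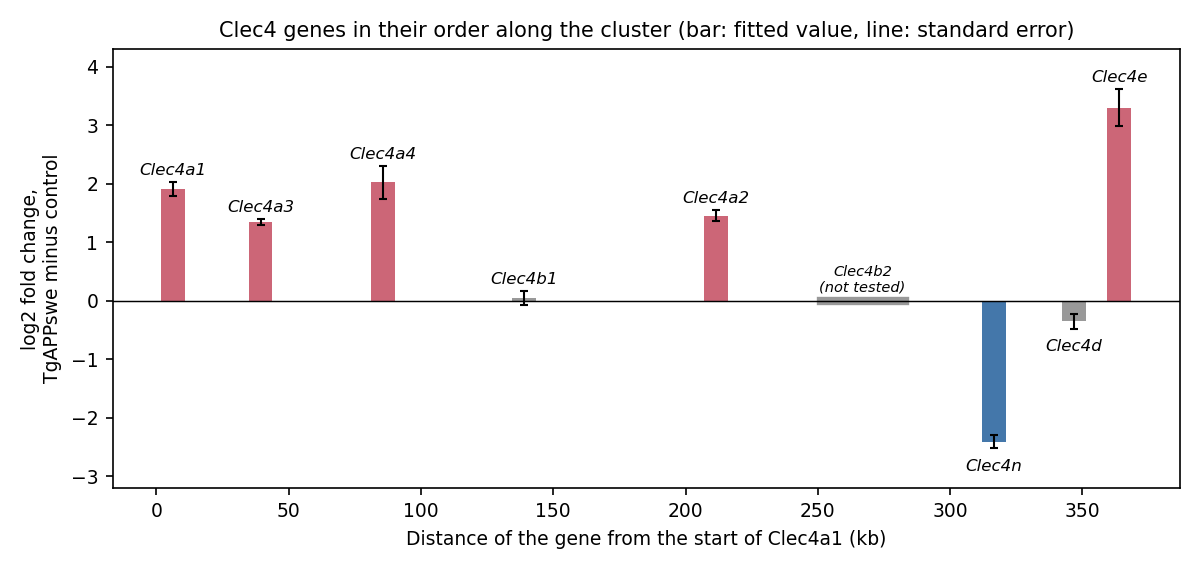
Fitted log2 fold change with its standard error (y) for the Clec4 genes of the cluster against their distance in kb from the start of Clec4a1 (x). Called genes are coloured red (higher in TgAPPswe) or blue (lower); Clec4a1, Clec4a3, Clec4a4, Clec4a2 and Clec4e were higher, and Clec4n was lower.

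Receptor signalling genes were the last list. Of 19 genes tested, 5 were called higher, 0 lower and 14 not called, beside 8.90% higher and 9.20% lower over all tested genes. Whatever their change, 15 passed the adjusted p of edgeR, as did 64.0% of all tested genes, and the median log2 fold change of the 19 was 0.44. At an unadjusted p under 0.05 without regard to the size of change, 12 were higher and 4 lower, and DESeq2 called 6 higher and 0 lower. With library size only, 3 were called higher, and the fits with limma on FPKM called 2, with Syk among them. Among the adaptors, Fcer1g, the Fc receptor gamma chain that Mincle, MCL and Dectin-2 need, had an FPKM of 2038, 1826 and 1772 in control and 3410, 3794 and 3288 in TgAPPswe. The genotypes were apart (log2 fold change 1.11, adjusted p = 5.19e-06), but the change was 0.90 with library size only and in the fits on FPKM with limma, under the threshold. Tyrobp (DAP12) went the other way, from 1786, 1658 and 1575 to 1115, 1005 and 1014 (log2 fold change -0.46, adjusted p = 0.000778), as did Hcst (DAP10), with -0.76 (adjusted p = 0.00515). Neither passed the fold change threshold. Of the kinases, Syk rose from 68.5, 68.5 and 67.2 to 159, 171 and 169 (log2 fold change 1.53 ± 0.0522, adjusted p = 1.4e-07). Lyn (1.23), a kinase of the Src family, was called higher as well, with an adjusted p of 5.3e-07. So was the exchange factor Vav1, whose FPKM was 77.7, 78.9 and 78 in control and 154, 157 and 154 in TgAPPswe (adjusted p = 3.12e-07). Both fell short of the threshold in the fits with limma, Lyn at 0.97 to 0.98 and Vav1 at 0.98, and Vav1 also with library size only (0.99). Its relative Vav3 differed by -0.86 (adjusted p = 2.58e-05), short of the threshold. In the CARD9 complex, Card9 differed by -0.40 (adjusted p = 0.000727), while Bcl10 (-0.12, adjusted p = 0.176) and Malt1 (0.30, adjusted p = 0.0673) did not pass the test. The phosphatases of inhibitory receptors Ptpn6 (0.52) and Ptpn11 (0.74) had adjusted p of 0.000133 and 6.87e-06, and Inpp5d (-0.06) had 0.383.

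**Figure D5:**
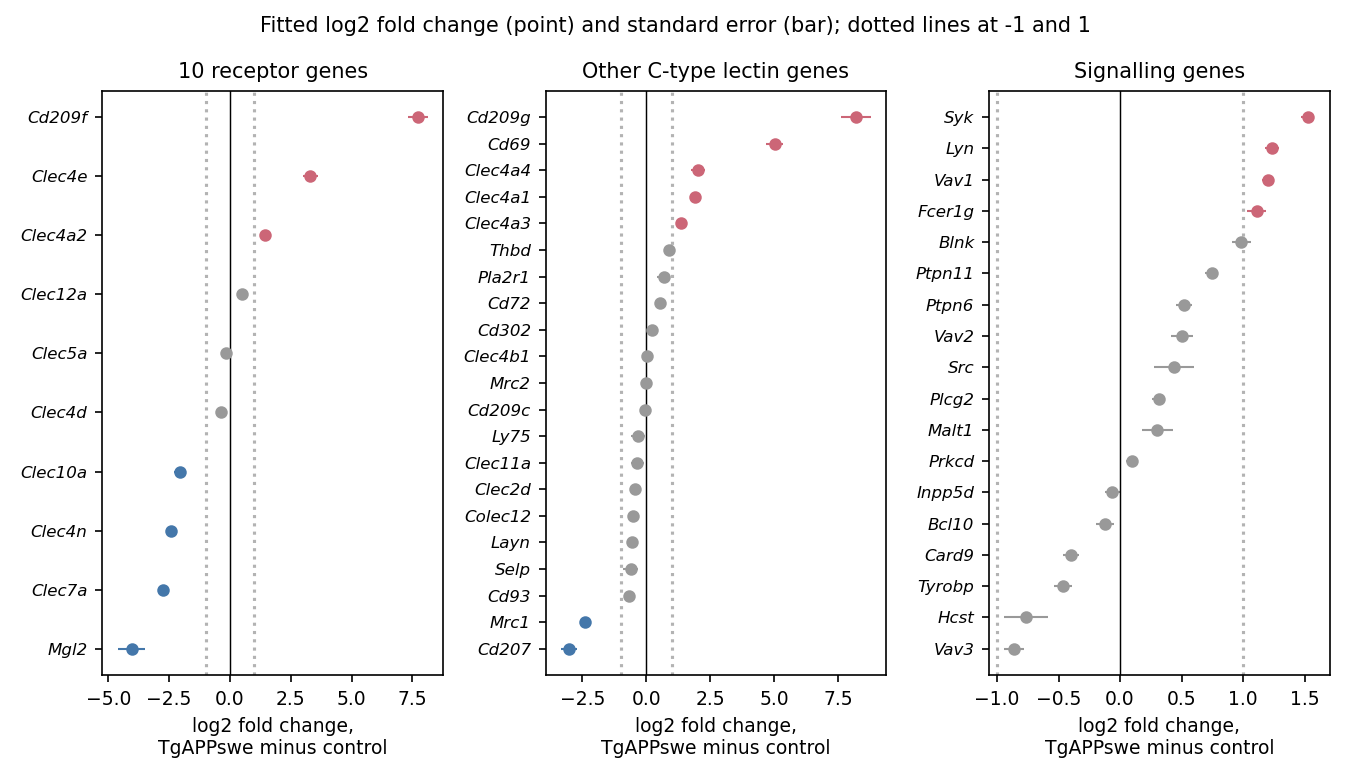
Fitted log2 fold change of TgAPPswe against control (x, with standard error bars) for the 10 receptor genes, other C-type lectin genes and signalling genes reported here (y, sorted), with genes called higher in red and lower in blue. The receptor genes ran from -4.05 for Mgl2 to 7.73 for Cd209f, and the signalling genes shown from -0.86 for Vav3 to 1.53 for Syk.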

How the data were processed

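RNA-seq was analysed in 6 libraries of sorted BMSCs, 3 per genotype. The authors removed rRNA and low-quality reads and mapped with HISAT2. The submitters' processing notes name HISAT2 2.0.4, Bowtie2 2.2.5, RSEM 1.2.12, DESeq2 1.4.5 and the build mm10. The authors deposited estimated counts, here rounded to whole numbers, and FPKM, which scales by gene length and by mapped fragments. A further deposited table holds the authors' own log2 ratio and p-value per gene and was not used here. The quasi-likelihood test of edgeR 4.0.16 (R 4.3.3) compared the genotypes after filterByExpr and TMM scaling, with Benjamini-Hochberg adjustment over 12701 genes. Totals were 19340810 to 22037840 counts per library, and 3 counts, or 0.136 to 0.155 CPM, were taken as detectable. FPKM carries no TMM factor, so its ratios lie lower than fitted changes: over all genes tested, the median on the log2 scale was -0.02 with TMM and -0.23 with library size only.

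The 10 genes and the lists were chosen with earlier results of these data known. Named genes are the 10 receptor genes, called genes of the other lectin and signalling lists, detected Cd209 and Clec4 genes, the adaptors and App, and some called genes are counted but not reported here by name. Thbd, Cd72, Cd93, Vav3, the CARD9 complex, the phosphatases and the myeloid, stromal, osteoclast, dendritic, neutrophil and endothelial markers were named after their values were seen. Identities were computed between the longest complete coding sequences of GENCODE M21 (GRCm38), and promoter windows came from RefSeq (GRCm38.p6). The fit was tested on simulated counts. Alternatives used DESeq2 1.42.0, limma 3.58.1 on log2(FPKM + 1) or log2(FPKM + 0.1), other scalings, filters and rounding, a replicate block, and leaving out each library.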

Additional observations from a re-analysis of the deposited data

How the results depend on the processing

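The 3 receptor genes called higher (Cd209f, Clec4e and Clec4a2) were the same in all 16 alternative fits. Of the 4 called lower, Mgl2 went untested under a minimum of 10 counts per library, which left 3, and the other alternative fits called all 4. Of the other results, receptor signalling genes called higher numbered 5, but 3 with library size only and 2 in each of the 3 fits with limma on FPKM. Those called lower numbered 0, but 1 (Vav3) with library size only and with limma on log2(FPKM + 0.1). Other C-type lectin genes called lower numbered 2, but 4 without a low-count filter. Leaving out each library gave 2 to 4 (4 without control replicate 2), 1103 to 1150 of all genes called higher and 1125 to 1262 lower. With the adjusted p alone, the counts higher and lower were 4 and 5 for the receptor genes, 10 and 6 for other lectins, 11 and 4 for signalling, and 4122 and 4007 for all genes, against 1130 and 1169. All genes called higher and lower were 586 and 843 with limma on log2(FPKM + 1), 667 and 1286 on log2(FPKM + 0.1), and 589 and 846 on log2(FPKM + 1) without a filter. With library size only the split was 846 higher and 1732 lower, against 1130 and 1169 with TMM.

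Clec5a changed sign, running from -0.38 to 0.033 (without TgAPPswe replicate 2) when each library was left out. Clec4b1 reversed to -0.17 with library size only and with log2(FPKM + 0.1), to -0.15 in both fits on log2(FPKM + 1), and ran from -0.0090 (without control replicate 2) to 0.082 when each library was left out. The cause was not tested. Summing the Cd209 genes moved 7.73 to 4.81 for all 4 and to 7.98 for Cd209f with Cd209g, a sum chosen after seeing the data. For same-numbered libraries of the genotypes, the correlations of their deviations were 0.0127, 0.00664 and 0.141. Libraries 1 and 2 did not match best with their own number, and library 3 did. Whether same-numbered libraries were handled together was not tested. With a replicate block, 3 receptor genes were called higher and 4 lower, and 5 other lectins higher in place of 6, of 1115 and 1147 genes in all. For Mgl2 in TgAPPswe, at 1 to 7.01 counts, depth limits the value.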
